A study of Mus musculus with 19 samples.

Results

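The NF-kB system is described here through 10 of its genes in sorted mouse bone marrow monocytes, namely the 5 subunit genes Nfkb1, Nfkb2, Rela, Relb and Rel, and 5 genes of its inhibitors and feedback, Nfkbia, Nfkbie, Tnfaip3, Tnip1 and Birc3. They were chosen by name, with earlier results of these data known, as 10 of the 50854 genes in the count table. All 10 passed the filter on low counts. Bulk RNA sequencing was carried out on cells sorted from REP mice, reporter animals in which inflammatory chemokine receptors, CCR1 and CCR2 among them, are each marked by their own fluorescent protein. The 19 libraries analysed fell into 5 groups. Resting mice gave 4 libraries of each monocyte population, CCR1/2+ve and CCR2+ve, inflamed mice gave 3 CCR1/2+ve and 4 CCR2+ve libraries, and 4 more are labelled inflamed CCR1. All mice were female and 8 to 12 weeks old. Inflamed mice carried osmotic pumps that released IL-3, IL-6, GM-CSF and IFN-α for 7 d, and whether the resting mice carried a pump with vehicle is not given in the sources used here. Populations were separated by the reporters for CCR1 and CCR2, so membership of a population rested on reporter fluorescence and not on the transcripts. The labels do not say whether replicates were separate animals, and p-values therefore measure the spread between these libraries, which may be technical.

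NF-kB proteins bind DNA as dimers of 5 subunits that share a Rel homology domain. In unstimulated cells the IkB proteins, of which IkBα (Nfkbia) is the best known, hold the dimers in the cytoplasm, and receptors for TNF, IL-1 and microbial products activate kinases that mark IkB for destruction. Several genes of the system are themselves NF-kB targets, among them Nfkbia, Tnfaip3 (the ubiquitin-editing enzyme A20), Tnip1 (its partner ABIN1) and Birc3 (the ubiquitin ligase cIAP2), and they restrain or shape the signal. A second arm runs through the kinase NIK and processing of the Nfkb2 product p100 and uses RelB. In myeloid cells the pathway drives cytokine, chemokine and survival genes.

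Reads on genes ranged from 22268658 to 30502009 per library (median 23706580), and levels are given as CPM, counts scaled to library size with TMM factors. The lowest value of a member rested on 7 reads (Relb in 1 library labelled inflamed CCR1). In the 15 libraries of the CCR1/2+ve and CCR2+ve groups, 9 of 10 monocyte markers reached 10 CPM in each group and their summed level was between 29980.0 and 55810.0 CPM. The 4 libraries labelled inflamed CCR1 went against the label of monocytes. There, 4 of 10 monocyte markers reached 10 CPM, with a summed level of 7708 to 12340.0 CPM, and 9 of 10 neutrophil markers did, with a summed level of 103700.0 to 151800.0 CPM against 830.0 to 3479 CPM in the other libraries. Ccr2 was at 5.82 ± 2.56 CPM and Ccr1 at 38.0 ± 4.60 CPM (SD, n = 4) in these libraries. They are called the libraries labelled CCR1 below and are given last. They entered the filter and the scaling of CPM: with the other 15 libraries alone, CPM of the 10 genes moved by −5.05% to 12.1%, and with the filter set on those 15 no call of a comparison between the other 4 groups changed for any of the 10 genes. In bulk samples, fewer cells of a type and less RNA per cell cannot be told apart.

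The transcripts that label the populations were checked first. Resting CCR1/2+ve monocytes had Ccr1 at 112 ± 20.6 CPM against 75.1 ± 7.13 CPM in resting CCR2+ve monocytes (SD, n = 4 each), a log2 difference of 0.65 ± 0.11 (SE, edgeR quasi-likelihood test, Benjamini-Hochberg adjusted p = 0.00154). In the inflamed populations the log2 difference in Ccr1 was 0.55 ± 0.25 (edgeR adjusted p = 0.574), and its libraries overlapped. Ccr2 was lower in resting CCR1/2+ve (633 ± 109 CPM) than in resting CCR2+ve monocytes (1218 ± 181 CPM), with no overlap. Its log2 difference was −0.87 ± 0.13 at rest (edgeR adjusted p = 0.000636) and −0.03 ± 0.11 when inflamed (edgeR adjusted p = 0.979).

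Promoter sequence was taken for the members from RefSeq (GRCm38.p6), as the 250 bases before each annotated transcription start, and 8 of the 10 genes matched with 11 windows. A search on both strands for the kappaB consensus, the DNA motif to which NF-kB dimers bind, found a match in windows of 6 of these 8 genes. Of all 32851 windows of the same length, 3.9% held one, a share per window, whereas the count of members is per gene. The windows are shown because genes that fell and genes that rose in inflamed monocytes both held the motif. Capitals mark the kappaB matches, and each window is printed 5′ to 3′ on the strand of its gene. Nfkbia (chr12:55492648-55492897, minus strand) had 1 match, 20 to 29 bases before the start. Nfkbie (chr17:45555450-45555699, plus strand) had 1 match, 97 to 106 bases before the start. Rel (chr11:23770970-23771219, minus strand) had 2 overlapping matches on opposite strands, between 82 and 92 bases before the start. Tnip1 (chr11:54962941-54963190, minus strand) had 3 matches that overlapped within 1 run, between 47 and 58 bases before the start.
Nfkbia: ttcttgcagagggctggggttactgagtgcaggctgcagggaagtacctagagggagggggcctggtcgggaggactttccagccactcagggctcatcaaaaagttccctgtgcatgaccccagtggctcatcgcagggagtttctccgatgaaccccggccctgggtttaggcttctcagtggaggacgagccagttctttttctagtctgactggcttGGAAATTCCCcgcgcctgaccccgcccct
Nfkbie: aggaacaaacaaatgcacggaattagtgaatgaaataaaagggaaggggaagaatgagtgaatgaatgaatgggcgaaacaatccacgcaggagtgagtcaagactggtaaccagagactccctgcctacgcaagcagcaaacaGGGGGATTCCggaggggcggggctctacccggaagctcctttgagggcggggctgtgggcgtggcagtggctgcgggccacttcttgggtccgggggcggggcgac
Rel: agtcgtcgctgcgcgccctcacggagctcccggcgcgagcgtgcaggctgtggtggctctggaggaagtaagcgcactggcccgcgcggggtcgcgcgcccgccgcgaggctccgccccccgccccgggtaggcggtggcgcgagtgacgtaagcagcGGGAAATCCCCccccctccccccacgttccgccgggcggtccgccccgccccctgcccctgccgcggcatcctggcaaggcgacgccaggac
Tnip1: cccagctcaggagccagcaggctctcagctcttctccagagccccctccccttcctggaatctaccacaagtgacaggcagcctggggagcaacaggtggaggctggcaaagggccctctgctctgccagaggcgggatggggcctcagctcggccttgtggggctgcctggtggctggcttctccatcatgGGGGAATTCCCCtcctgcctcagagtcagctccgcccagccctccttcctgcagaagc

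For Tnfaip3 and Nfkb2, whose windows overlap annotated exons, the matches alone are given, as they read on the strand of the gene. Of these, GGAAATCCCC and GGAATGTCCC matched the consensus on the opposite strand. One Tnfaip3 window held GGGACACCCC, 116 to 125 bases before the start, and GGAAATCCCC, 3 to 12 bases before it. The Nfkb2 window that lies furthest upstream held GGGAATTCCC, 30 to 39 bases before its start, with an overlapping match on the other strand, and GGGGCTTTCC, 2 to 11 bases before it. Of the other Nfkb2 windows, one held GGAATGTCCC, 227 to 236 bases before its start, and one held GGGACTTTCC, 216 to 225 bases before its start. The windows of Rela and Birc3 held no kappaB match. Matches to the STAT consensus TTCNNNGAA were found in the windows of Nfkb2 and Tnip1 (7.02% of all windows), and no member's window held the interferon element GAAANNGAAA (2.98% of all windows).

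CPM per kilobase of exon was used to compare levels between genes. The length was that of all annotated exons of a gene merged (12061 bases for Nfkb1, 1610 for Nfkbia), not of 1 transcript. The order of genes and the ratios between genes depend on this choice. In resting monocytes Nfkbia stood far above the other members, at 150.4 ± 22.4 CPM per kb in CCR1/2+ve and 249 ± 30.8 CPM per kb in CCR2+ve monocytes (SD, n = 4 each). Rela was next at 23.7 ± 4.30 and 34.7 ± 3.35 CPM per kb, followed by Birc3 and Tnip1. Relb and Tnfaip3 were lowest and did not differ from each other beyond their spread (2.07 ± 0.42 and 2.04 ± 0.68 CPM per kb in CCR1/2+ve monocytes). The order differed in the inflamed groups. In inflamed CCR2+ve monocytes Nfkbia (40.7 ± 16.8), Rela (38.1 ± 2.50), Tnip1 (32.3 ± 2.58) and Birc3 (31.0 ± 2.44 CPM per kb) lay close together. Nfkbia and Rela were within their spread, as were Tnip1 and Birc3. Every Rela value (35.91 to 41.65 CPM per kb) was above every Tnip1 value (29.41 to 34.71 CPM per kb). In inflamed CCR1/2+ve monocytes Rela (33.4 ± 4.41 CPM per kb, n = 3), Nfkbia (32.2 ± 24.7), Tnip1 (31.4 ± 1.94) and Birc3 (30.0 ± 2.37) were within their spread of one another.

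**Figure D1:**
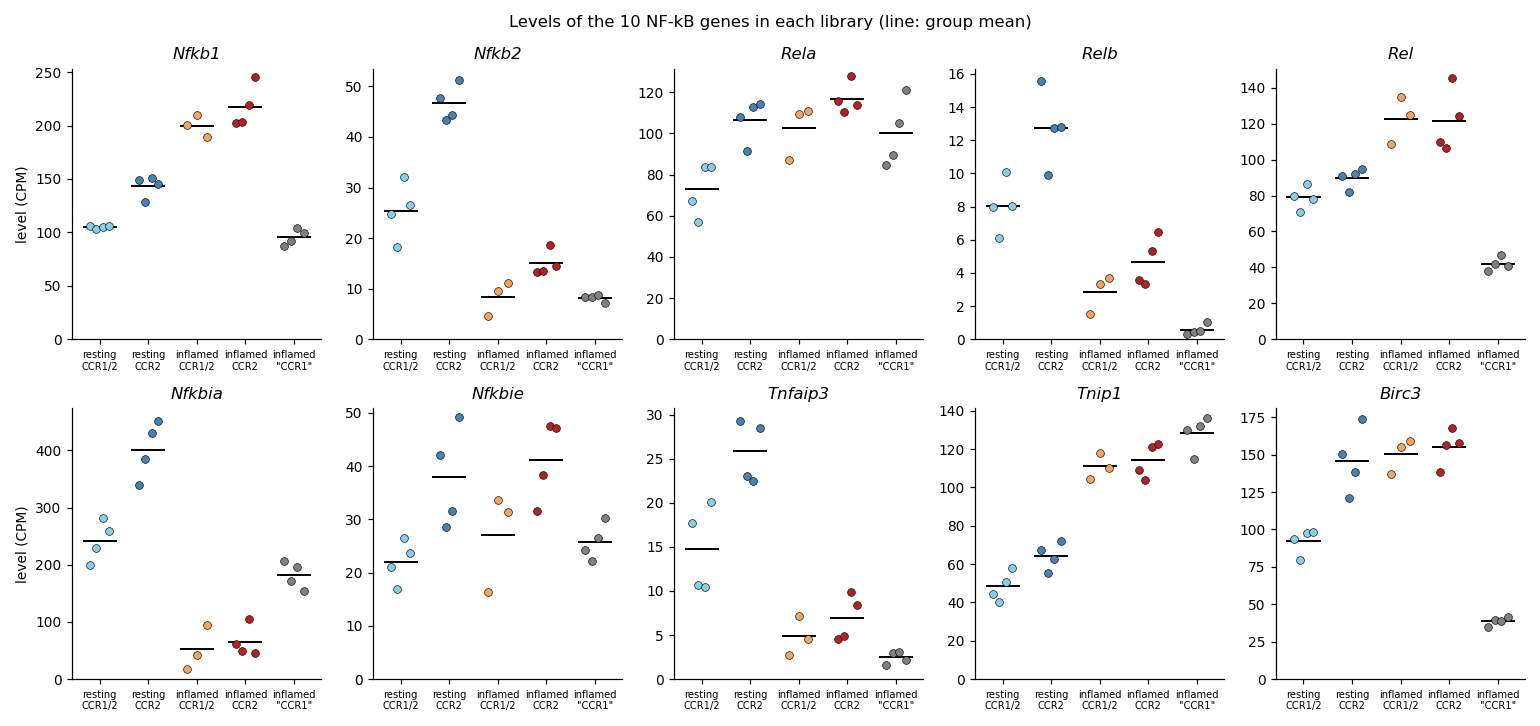
Level in CPM (vertical axes, linear from 0) of each of the 10 genes in the 19 libraries, in groups along the horizontal axis. Points are libraries and lines are group means. Within each population, Nfkbia, Nfkb2, Relb and Tnfaip3 sit lower in every inflamed CCR1/2 or CCR2 library than in its resting libraries, while Nfkb1 and Tnip1 sit higher.

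Inflamed and resting libraries were compared within each population, after 7 d of cytokine infusion in the inflamed mice. Pumps were implanted under isoflurane with carprofen. If the resting mice had no pump, that procedure and the cytokines cannot be told apart. The comparisons have no library in common, but they are not independent, since same-numbered resting libraries of the populations deviated together from their group means (4 pairs, r from 0.31 to 0.61 across 7685 genes). In both populations the genes split: Nfkbia, Tnfaip3, Nfkb2 and Relb were downregulated, whereas Nfkb1, Rel and Tnip1 were upregulated. In CCR2+ve monocytes 3 of the 10 genes rose and 4 fell (edgeR adjusted p below 0.05), where 21.9% of all 18652 genes tested rose and 25.9% fell. Of the 10 genes in CCR1/2+ve monocytes, 5 rose and 4 fell, where 20.6% of genes tested rose and 25.4% fell. The median log2 fold change of the 10 genes was 0.04 for CCR2+ve and 0.28 for CCR1/2+ve cells, beside −0.10 and −0.25 over all genes tested. When the log2 fold change also had to reach 1 in size, 4 genes passed in CCR2+ve monocytes, all lower (28.6% of all genes in either direction), and 5 in CCR1/2+ve monocytes, the same 4 lower and Tnip1 higher (28.5% of all genes). Where an exact permutation test of a gene is cited, the smallest p it allows is 0.0286, for 4 libraries against 4 and for 3 against 4 alike.

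Nfkbia, the inhibitor that is resynthesised after NF-kB activation, showed the largest fall among the 10 genes in both populations. Resting CCR2+ve libraries held 340.1, 384, 430.1 and 452 CPM, and inflamed CCR2+ve libraries 61.2, 49.6, 105 and 46.4 CPM. Resting CCR1/2+ve libraries held 199, 229, 282 and 259 CPM, and the 3 inflamed CCR1/2+ve libraries 17.4, 42.9 and 95.3 CPM. Every inflamed library lay below every resting library of its population, and the 3 inflamed CCR1/2+ve libraries were widely spread. The log2 fold change was −2.68 ± 0.23 in CCR2+ve monocytes, a 6.42-fold lower level (edgeR adjusted p = 3.59e-07, exact permutation p = 0.0286). The value in CCR1/2+ve monocytes was −2.33 ± 0.49, a 5.04-fold lower level (edgeR adjusted p = 0.00359, exact permutation p = 0.0286), and with 1 library left out it ranged from −3.14 (without inflamed CCR1/2 replicate 4) to −1.91, with edgeR adjusted p from 8.16e-05 to 0.0351. Nfkbie (IkBε), a second inhibitor of the same family, did not pass: inflamed CCR2+ve libraries held 31.6, 38.4, 47.6 and 47.1 CPM against 42.1, 28.6, 31.6 and 49.2 CPM at rest (log2 fold change 0.05 ± 0.18, edgeR adjusted p = 0.829). Nfkbie in CCR1/2+ve monocytes held 16.4, 33.7 and 31.4 CPM in inflamed and 21.1, 16.9, 26.4 and 23.7 CPM in resting libraries, which overlapped (0.18 ± 0.23, edgeR adjusted p = 0.561). Without inflamed CCR1/2 replicate 2, the lowest library, that difference was 0.45 and passed (edgeR adjusted p = 0.0272). As levels per kilobase, Nfkbie was 0.0389 to 0.0655 of Nfkbia in resting libraries of both populations. It was 0.174 to 0.537 of Nfkbia in their inflamed libraries.

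Tnfaip3 fell with Nfkbia and Tnip1 rose, although their products act together. Tnfaip3 held 29.3, 23.0, 22.5 and 28.5 CPM in resting and 4.56, 4.93, 9.87 and 8.39 CPM in inflamed CCR2+ve monocytes. The log2 fold change was −1.96 ± 0.23 (edgeR adjusted p = 4.69e-06), with no overlap between the groups. The CCR1/2+ve levels were 17.7, 10.7, 10.5 and 20.1 CPM at rest and 2.76, 7.20 and 4.57 CPM when inflamed (−1.73 ± 0.35, edgeR adjusted p = 0.00268). Inflamed libraries were lower throughout. Tnip1 moved the other way, from 67.1, 55.6, 62.6 and 72.1 CPM to 109, 104, 121 and 123 CPM in CCR2+ve monocytes (0.76 ± 0.11, edgeR adjusted p = 3.72e-05). Its CCR1/2+ve levels went from 44.5, 40.5, 50.9 and 57.9 CPM to 105, 118 and 110.2 CPM (1.07 ± 0.11, edgeR adjusted p = 8.29e-06). All inflamed libraries were above all resting libraries. Birc3 held 151, 121, 138 and 174 CPM in resting and 138, 157, 168 and 158 CPM in inflamed CCR2+ve monocytes (0.02 ± 0.12, edgeR adjusted p = 0.907). For CCR1/2+ve monocytes the rise from 93.7, 79.8, 97.8 and 98.4 CPM to 137, 155 and 159 CPM passed (0.58 ± 0.10, edgeR adjusted p = 0.000446), within the range that CCR2+ve monocytes had in both conditions.

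Among the subunits, Nfkb1 (p105/p50) and Rel (c-Rel) rose and Nfkb2 (p100/p52) and Relb fell. Nfkb1 held 149, 128, 151 and 145 CPM in resting and 203, 203, 219 and 245 CPM in inflamed CCR2+ve monocytes (log2 fold change 0.53 ± 0.11, edgeR adjusted p = 0.000609). In CCR1/2+ve monocytes it held 106, 103, 105 and 106 CPM at rest, the tightest group of any member, and 201, 210.1 and 189 CPM when inflamed (0.80 ± 0.08, edgeR adjusted p = 1.08e-05). The inflamed libraries were above the resting libraries in both populations. Rel rose by 0.37 ± 0.12 on the log2 scale in CCR2+ve monocytes, from 82.2 to 94.7 CPM over the resting libraries to 106 to 145 CPM over the inflamed libraries (edgeR adjusted p = 0.0176, and 0.0657 without inflamed CCR2 replicate 3). It rose by 0.51 ± 0.11 in CCR1/2+ve monocytes, from 71.0 to 86.6 CPM at rest to 109 to 135 CPM (edgeR adjusted p = 0.00179). Rela, the subunit with the transactivation domain of the common p50-RelA dimer, did not pass in CCR2+ve monocytes (0.07 ± 0.10, edgeR adjusted p = 0.63). Rela in CCR1/2+ve monocytes held 67.1, 56.7, 83.5 and 83.7 CPM at rest and 86.8, 109.5 and 111 CPM when inflamed (0.37 ± 0.13, edgeR adjusted p = 0.0397). That call was lost without inflamed CCR1/2 replicate 3 or 4 or resting CCR1/2 replicate 1 or 2 (edgeR adjusted p from 0.0884 to 0.147).

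Nfkb2 held 47.8, 43.3, 44.4 and 51.2 CPM in resting and 13.3, 13.6, 18.6 and 14.5 CPM in inflamed CCR2+ve monocytes (−1.71 ± 0.13, edgeR adjusted p = 6.15e-08). In CCR1/2+ve monocytes it held 24.7, 18.2, 32.2 and 26.6 CPM at rest and 4.56, 9.60 and 11.2 CPM when inflamed (−1.70 ± 0.30, edgeR adjusted p = 0.000959). No inflamed library reached a resting library of its own population. Of the exonic bases of Nfkb2, 18.1% overlap Psd or AC114539.1. The strand of counting is not given in the sources used here, so whether reads in those bases were counted for Nfkb2 is not known. Relb, the partner of p52, held 15.6, 9.92, 12.7 and 12.8 CPM in resting and 3.59, 3.35, 5.32 and 6.46 CPM in inflamed CCR2+ve monocytes (−1.51 ± 0.23, edgeR adjusted p = 6.27e-05). In CCR1/2+ve monocytes it held 7.94, 6.08, 10.1 and 8.01 CPM at rest and 1.50, 3.30 and 3.69 CPM, or 31, 66 and 84 reads, when inflamed (−1.62 ± 0.30, edgeR adjusted p = 0.000977). The 2 genes of this arm were therefore lower in every inflamed library of a population than in any of its resting libraries.

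**Figure D2:**
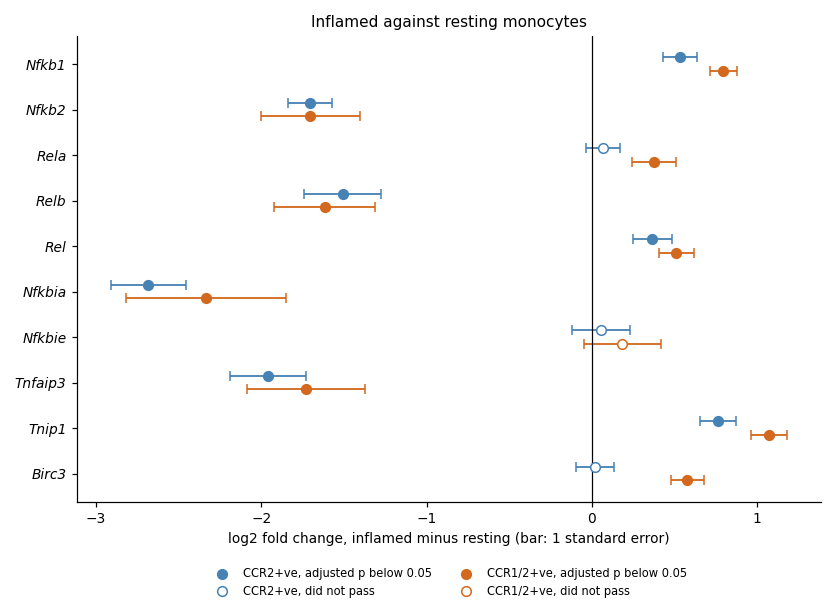
Log2 fold change of inflamed against resting monocytes (horizontal axis) for each of the 10 genes, in CCR2+ve (blue) and CCR1/2+ve (orange) monocytes, with bars of 1 standard error. Filled points passed at an edgeR adjusted p below 0.05. Nfkbia, Tnfaip3, Nfkb2 and Relb lie between −2.68 and −1.51 in both populations, and Nfkb1, Rel and Tnip1 lie above 0.

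Whether the response differed between populations was tested directly, as the interaction of population and inflammation in 1 fit of the 15 libraries. By edgeR 0 of the 10 genes passed in either direction (0.241% of genes tested passed as higher and 0.155% as lower), 1 was higher at an unadjusted p below 0.05, and 1 passed with DESeq2. That gene was Birc3 in both cases, whose log2 fold change was 0.51 ± 0.16 greater in CCR1/2+ve than in CCR2+ve monocytes (edgeR adjusted p = 0.158, DESeq2 adjusted p = 0.0287). The median interaction was 0.20 over the 10 genes and −0.10 over all genes. For Nfkbia the interaction was 0.30 ± 0.56. With an error this wide, the absence of a call does not show that the populations responded alike.

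Ratios between members were taken within each library. Per kilobase, Nfkb2 was 0.463 to 0.928 of Nfkb1 over the 8 resting libraries and 0.0597 to 0.224 of it over the 7 inflamed CCR1/2+ve and CCR2+ve libraries. Relb was 0.0757 to 0.114 of Rela at rest and 0.0137 to 0.0448 when inflamed. The ratio of Nfkbia to the summed subunits was 2.54 to 3.76 at rest and 0.178 to 0.823 when inflamed. The ranges of the resting and these 7 inflamed libraries did not overlap for any of these 3 ratios. In the libraries labelled CCR1, Nfkbia was 1.75 to 3.06 of the summed subunits, which overlapped the resting range. Nfkb2 was 0.188 to 0.253 of Nfkb1 there and Relb 0.00297 to 0.00677 of Rela, below the resting ranges. The ratios are given as descriptions of transcript levels and were not tested.

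**Figure D3:**
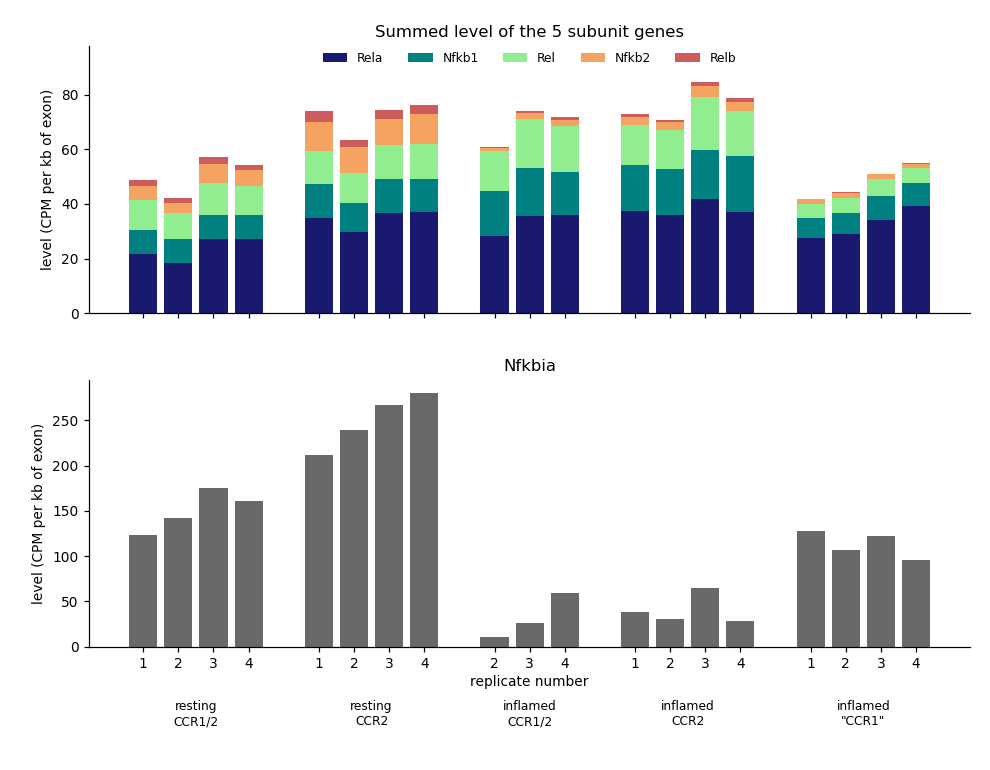
Levels in CPM per kb of exon (vertical axes from 0) in each of the 19 libraries, by group and replicate number (horizontal axis). The upper panel stacks the 5 subunit genes and the lower panel gives Nfkbia, which stands at 150.4 and 249 CPM per kb on average in the resting groups and at 32.2 and 40.7 CPM per kb in inflamed CCR1/2 and CCR2 libraries.

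The rest of the pathway was described from lists of related genes, each with the number that passed, to be read beside the shares of all genes tested (for CCR2+ve cells 21.9% rose and 25.9% fell, for CCR1/2+ve cells 20.6% rose and 25.4% fell). Of 22 kinases and adaptors, 8 rose and 8 fell in inflamed CCR2+ve monocytes, and 9 rose and 6 fell in inflamed CCR1/2+ve monocytes. Myd88, the adaptor of Toll-like and IL-1 receptors, rose by 1.26 ± 0.10 and 1.66 ± 0.11 on the log2 scale in CCR2+ve and CCR1/2+ve monocytes (edgeR adjusted p = 6.29e-08 and 2.15e-07). Card9, an adaptor of fungal recognition receptors, rose by 2.37 ± 0.12 and 2.04 ± 0.15. Chuk, which encodes the kinase IKKα, fell from 99.0 to 19.4 CPM on average in CCR2+ve monocytes (−2.42 ± 0.10, edgeR adjusted p = 1.04e-10) and from 83.1 to 19.5 CPM in CCR1/2+ve monocytes (−2.23 ± 0.13, edgeR adjusted p = 7.51e-08). Ripk1, the kinase of TNF receptor complexes, fell in both populations (−1.79 ± 0.13 and −1.54 ± 0.11). Map3k14 (NIK), the kinase of the arm that uses p100 and RelB, rose from 24.9 to 79.1 CPM in CCR2+ve monocytes (1.60 ± 0.12, edgeR adjusted p = 3.06e-08).

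Of the 8 tested genes of other IkB proteins and nuclear regulators, 1 rose and 4 fell in CCR2+ve and 1 rose and 5 fell in CCR1/2+ve monocytes. Bcl3, a nuclear IkB protein, fell from 33.1 to 7.82 CPM in CCR2+ve monocytes (−2.14 ± 0.22, edgeR adjusted p = 1.19e-06), and Nfkbid fell in both populations (−1.28 ± 0.18 and −2.14 ± 0.28). Of 13 ubiquitin editors and brakes, 2 rose and 5 fell in CCR2+ve and 3 rose and 5 fell in CCR1/2+ve monocytes. Irak3, a kinase-like brake on Toll-like receptor signalling, fell from 112 to 15.7 CPM and from 87.6 to 14.5 CPM in the respective populations (−2.89 ± 0.17 and −2.72 ± 0.16, edgeR adjusted p = 1.86e-09 and 8.34e-08). Zc3h12a, which encodes an RNase that degrades cytokine transcripts, rose (1.07 ± 0.16 and 1.41 ± 0.15). Of 9 receptors, 0 rose in either population (0 also at an unadjusted p below 0.05 and with DESeq2), 3 fell in CCR2+ve monocytes (1 without resting CCR2 replicate 3) and 1 fell in CCR1/2+ve monocytes (2 without inflamed CCR1/2 replicate 2 or 4).

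Of 20 tested NF-kB target genes, 5 rose and 6 fell in CCR2+ve and 4 rose and 4 fell in CCR1/2+ve monocytes, which is near the shares of all genes. Bcl2l1, an anti-apoptotic gene, rose in both populations (1.68 ± 0.13 and 1.63 ± 0.13), as did Ier3 (3.02 ± 0.27 and 2.61 ± 0.24). Sod2, the mitochondrial superoxide dismutase, fell in both (−1.42 ± 0.15 and −1.26 ± 0.28), and Tnf fell from 4.44 to 1.11 CPM in CCR1/2+ve monocytes (−2.10 ± 0.31, edgeR adjusted p = 0.000177). Of 15 immediate early genes, 1 rose and 8 fell in CCR2+ve and 2 rose and 6 fell in CCR1/2+ve monocytes. Ier2 fell from 418 to 13.7 CPM in CCR2+ve monocytes (−5.00 ± 0.13, edgeR adjusted p = 2.95e-12) and Junb, an AP-1 subunit, from 177 to 22.4 CPM (−3.05 ± 0.12). Ier2 and Junb also fell in CCR1/2+ve monocytes (−4.90 ± 0.33 and −3.24 ± 0.28). The summed level of this list was 1742 to 2037 CPM at rest and 1153 to 1340.0 CPM when inflamed in CCR2+ve monocytes. In CCR1/2+ve monocytes it was 1311 to 1519 CPM and 1121 to 1289 CPM, so the ranges did not overlap in either population. Immediate early genes respond to handling and dissociation of cells, and their part in the fall of Nfkbia and Tnfaip3 was not tested. Of 12 interferon response genes, 4 rose and 2 fell in CCR2+ve and 8 rose and 1 fell in CCR1/2+ve monocytes. IFN-α was itself among the infused cytokines.

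**Figure D4:**
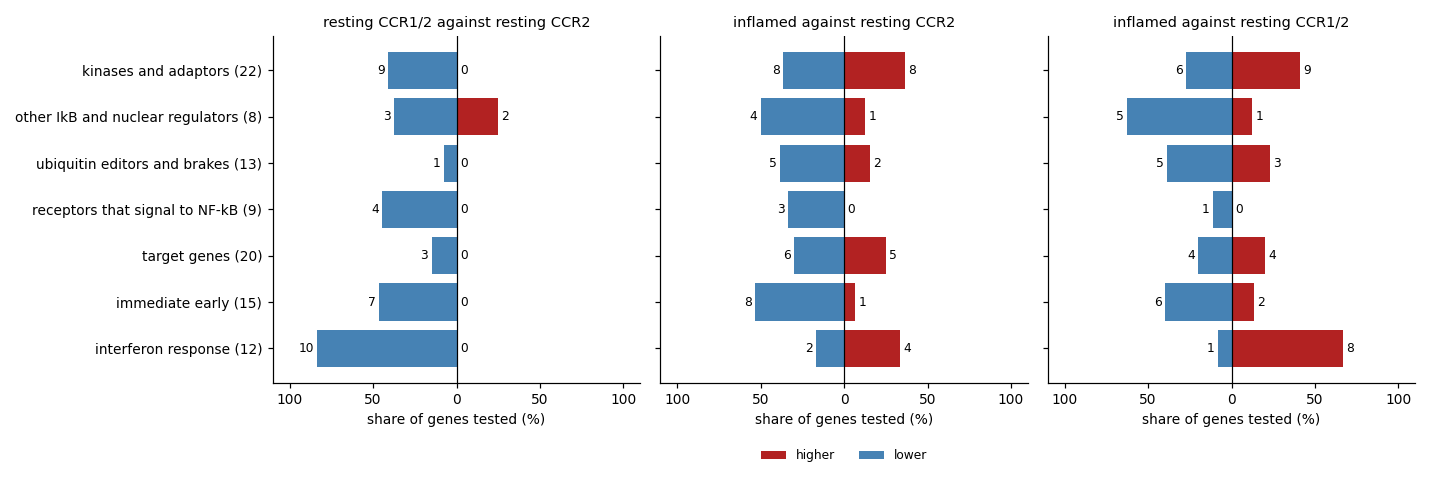
Share of the tested genes of each list (percent, horizontal axes; numbers tested in brackets on the vertical axis) that were higher (red, to the right) or lower (blue, to the left) at an edgeR adjusted p below 0.05, with the number of genes at each bar. In inflamed monocytes the kinases, adaptors and target genes are split between the directions, with 8 higher and 8 lower of 22 kinases and adaptors in CCR2+ve monocytes.

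Summed levels of marker lists also moved with inflammation. The summed level of 5 basophil and mast cell markers was 0.0924 to 19.6 CPM over the resting and 104 to 237 CPM over the inflamed libraries of both populations, with 1 of the 5 at 10 CPM or more. The 5 erythroid markers summed to 44.6 to 217 CPM at rest and 0.818 to 2.84 CPM when inflamed. Neutrophil markers summed to 830.0 to 1118 CPM in resting and 1673 to 1962 CPM in inflamed CCR2+ve monocytes, and to 2568 to 3150.0 and 2871 to 3479 CPM in CCR1/2+ve monocytes. The 7 T and NK cell markers summed to 9.96 to 15.5 CPM at rest and 4.09 to 4.99 CPM when inflamed in CCR2+ve monocytes, and to 30.5 to 80.7 and 5.65 to 6.93 CPM in CCR1/2+ve monocytes. The 7 tissue macrophage markers went in opposite directions, from 6.14 to 15.03 CPM to 20.8 to 27.5 CPM in CCR2+ve and from 34.9 to 103 CPM to 10.2 to 20.2 CPM in CCR1/2+ve monocytes. For 3 further lists the resting and inflamed libraries were apart in CCR1/2+ve monocytes and overlapped in CCR2+ve monocytes. In the former, monocyte markers summed to 29980.0 to 42260.0 CPM at rest and 49420.0 to 52840.0 CPM when inflamed, dendritic cell markers to 159.9 to 419.8 and 879.7 to 1116 CPM, and B cell markers to 593.9 to 718.5 and 954.9 to 1658 CPM. Several of these sums rested on few genes. In CCR1/2+ve monocytes 2 of the 8 B cell markers reached 10 CPM at rest and when inflamed. Of the 9 dendritic cell markers 3 did at rest and 2 when inflamed, and of the 7 T and NK cell markers 1 did at rest. The part of these lists in the changes of the 10 genes was not tested.

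At rest, CCR1/2+ve and CCR2+ve monocytes were compared to ask whether the populations differ in the same genes. The CCR1/2+ve population had the lower level for 9 of the 10 genes and the higher for 0 (edgeR adjusted p below 0.05), where 8.44% of genes tested were lower and 8.44% higher. No member was higher at an unadjusted p below 0.05 or with DESeq2 either. The differences were modest: the median over the 10 genes was −0.59 on the log2 scale, beside 0.03 over all genes, and for 0 of the 10 did the log2 difference reach 1 in size (4.25% of all genes passed both limits). Replicate numbers paired these libraries, and with the replicate number as a block 9 genes passed as well.

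Nfkbia was lower in every CCR1/2+ve library (199 to 282 CPM) than in any CCR2+ve library (340.1 to 452 CPM), with a log2 difference of −0.65 ± 0.10 (edgeR adjusted p = 0.00112, exact permutation p = 0.0286). Nfkbie was lower by a similar amount (22.1 ± 4.03 against 37.9 ± 9.51 CPM, SD, n = 4 each), with a log2 difference of −0.71 ± 0.17 (edgeR adjusted p = 0.0112). Nfkb2 had the largest difference, at 18.2 to 32.2 CPM against 43.3 to 51.2 CPM (−0.81 ± 0.13, edgeR adjusted p = 0.00131). The libraries of the populations did not overlap for any of these 3 genes.

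Birc3 was at 79.8 to 98.4 CPM in CCR1/2+ve and 121 to 174 CPM in CCR2+ve monocytes (−0.58 ± 0.10, edgeR adjusted p = 0.00183). Nfkb1 was lower by 0.37 on the log2 scale (−0.37 ± 0.07, edgeR adjusted p = 0.00315) and Rela was lower in every CCR1/2+ve library (56.7 to 83.7 CPM) than in any CCR2+ve library (91.6 to 114 CPM; −0.48 ± 0.11, edgeR adjusted p = 0.0101). Rel, at 71.0 to 86.6 against 82.2 to 94.7 CPM, was the member that did not pass (−0.11 ± 0.07, edgeR adjusted p = 0.356). Tnfaip3, Relb and Tnip1 passed with the replicate number as a block (edgeR adjusted p = 9.8e-05, 0.00364 and 0.0021). In the fit with no block, calls for these 3 genes depended on single libraries. Tnfaip3 (10.5 to 20.1 against 22.5 to 29.3 CPM, −0.73 ± 0.20, edgeR adjusted p = 0.0231) did not pass without CCR1/2 replicate 2 or 3 or CCR2 replicate 1 or 4, with adjusted p up to 0.0741. Relb (−0.59 ± 0.17, edgeR adjusted p = 0.0295), whose libraries overlapped, did not pass without CCR1/2 replicate 1, 2 or 4 or CCR2 replicate 1, 3 or 4, with adjusted p up to 0.0949. Tnip1 (−0.34 ± 0.11, edgeR adjusted p = 0.0462), whose libraries also overlapped, did not pass without CCR1/2 replicate 1, 2 or 3 or CCR2 replicate 1, 3 or 4, with adjusted p up to 0.126. In 1 fit of all 19 libraries the differences of Nfkbia, Relb and Tnfaip3 did not pass (edgeR adjusted p = 0.191, 0.109 and 0.0529).

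The lists of related genes were compared at rest as well, where 8.44% of all genes tested were lower and 8.44% higher in CCR1/2+ve monocytes. Of 22 kinases and adaptors 9 were lower and 0 higher (0 higher at an unadjusted p below 0.05 and with DESeq2), among them Irak4 (−0.42 ± 0.09, edgeR adjusted p = 0.00576) and Ripk1 (−0.36 ± 0.08, edgeR adjusted p = 0.00692), and 5 passed without CCR2 replicate 1. Of 9 receptors 4 were lower and 0 higher (0 higher at an unadjusted p below 0.05 and with DESeq2), including Cd40, a receptor for T cell help, at 11.0 against 30.3 CPM (−1.39 ± 0.19, edgeR adjusted p = 0.000392), and Tnfrsf1b, the TNF receptor TNFR2, at 158 against 273 CPM (−0.71 ± 0.11, edgeR adjusted p = 0.000739). Of 8 other IkB proteins and nuclear regulators 2 were higher and 3 lower, and Bcl3 was at 13.6 against 33.1 CPM (−1.21 ± 0.28, edgeR adjusted p = 0.013, and 0.0732 with no filter on low counts), whereas Nfkbid was higher (0.75 ± 0.16, edgeR adjusted p = 0.00695). Of 13 ubiquitin editors and brakes 1 was lower, a share near that of all genes, namely Tnip3 (−1.36 ± 0.36, edgeR adjusted p = 0.021), and 3 passed with the replicate block, while Tnip3 did not pass without CCR1/2 replicate 2 or CCR2 replicate 1 or 4 (adjusted p from 0.0603 to 0.0739). Of 20 target genes 3 were lower, Icam1 (−1.09 ± 0.14, edgeR adjusted p = 0.000297), Irf1 and Ccl5, and 7 passed with the replicate block and 5 without CCR2 replicate 2. None of these 2 lists' genes was called higher by edgeR, 1 ubiquitin editor or brake and 0 target genes were higher at an unadjusted p below 0.05, and 0 were higher with DESeq2.

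Other transcripts moved with the lower NF-kB genes at rest. Of 12 interferon response genes 10 were lower in the CCR1/2+ve population, with a summed level of 562 to 1069 CPM against 1184 to 2104 CPM, and the count was 4 without CCR1/2 replicate 2, and 6 and 5 without CCR2 replicate 1 and 4. Of 15 immediate early genes 7 were lower (12 passed with the replicate block), with a summed level of 1311 to 1519 CPM against 1742 to 2037 CPM. The 9 dendritic cell markers summed to 159.9 to 419.8 CPM in CCR1/2+ve and 816 to 2292 CPM in CCR2+ve libraries, 5 and 3 of them were under 1 CPM, and each had a read in both groups. The 10 neutrophil markers summed to 2568 to 3150.0 CPM against 830.0 to 1118 CPM, and 6 and 5 of them reached 10 CPM. The 10 monocyte markers summed to less in every CCR1/2+ve library (29980.0 to 42260.0 CPM) than in any CCR2+ve library (44320.0 to 50430.0 CPM), and 9 of them reached 10 CPM in both groups. The 8 B cell markers summed to 593.9 to 718.5 CPM against 757.5 to 1012 CPM, the 7 T and NK cell markers to 30.5 to 80.7 CPM against 9.96 to 15.5 CPM, and the 7 tissue macrophage markers to 34.9 to 103 CPM against 6.14 to 15.03 CPM. In both groups 2 of the B cell markers reached 10 CPM. In CCR1/2+ve libraries alone, 1 of the T and NK cell and 3 of the tissue macrophage markers did. Erythroid markers, and basophil and mast cell markers, overlapped between the groups. Mitochondrial transcripts took 0.585% to 0.987% of reads against 0.347% to 0.59%. The part of these in the lower level of the 9 genes was not tested.

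**Figure D5:**
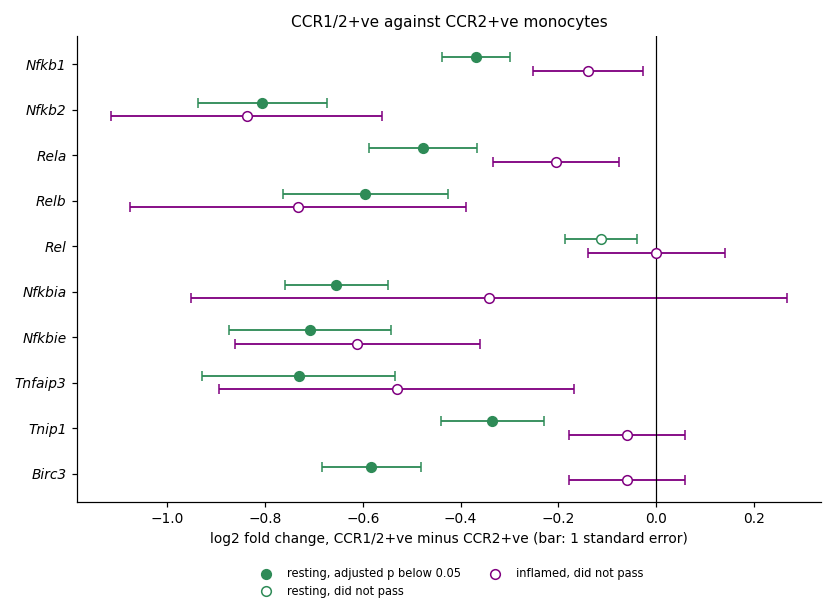
Log2 difference of CCR1/2+ve against CCR2+ve monocytes (horizontal axis) for each of the 10 genes, at rest (green) and inflamed (purple), with bars of 1 standard error. Filled points passed at an edgeR adjusted p below 0.05, which holds for 9 genes at rest, from −0.81 (Nfkb2) to −0.34 (Tnip1), and for 0 when inflamed.

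When the inflamed populations were compared, 0 of the 10 genes passed with edgeR, 2 were lower at an unadjusted p below 0.05, and 0 passed with DESeq2. Few genes passed at all: 0.123% of genes tested were higher and 0.0643% lower in inflamed CCR1/2+ve monocytes. The median over the 10 genes was −0.27 on the log2 scale, beside −0.03 over all genes. Nfkb2 had the largest difference (4.56 to 11.2 against 13.3 to 18.6 CPM), at −0.84 ± 0.28 with no overlap (edgeR adjusted p = 0.367), which is close to its value at rest. Birc3, Tnip1 and Rel had log2 differences of −0.06 ± 0.12, −0.06 ± 0.12 and 0.00 ± 0.14. For Nfkbia the difference was −0.34 ± 0.61 (edgeR adjusted p = 0.913), and with 3 libraries spread from 17.4 to 95.3 CPM a difference of the size seen at rest was not detectable.

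The libraries labelled CCR1, in which neutrophil markers were the more abundant, had a different set of levels. Other markers were high in them too: the 7 T and NK cell markers summed to 1361 to 1708 CPM, with 1 of them at 10 CPM or more and 6 under 1 CPM, and the 7 tissue macrophage markers to 433.7 to 516.5 CPM, again with 1 at 10 CPM or more, where the other 15 libraries reached at most 80.7 and 103 CPM. Compared with inflamed CCR2+ve monocytes, 7 of the 10 genes were lower and 1 was higher (edgeR adjusted p below 0.05), where 25.4% of genes tested were lower and 22.7% higher. The median was −1.03 on the log2 scale, beside −0.01 over all genes. Birc3 held 34.9, 39.4, 39.1 and 41.7 CPM against 138 to 168 CPM (−2.00 ± 0.11, edgeR adjusted p = 1.45e-10), and Relb held 0.319, 0.407, 0.508 and 1.04 CPM, or 7 to 22 reads, against 3.35 to 6.46 CPM (−3.04 ± 0.37, edgeR adjusted p = 2.91e-06). Rel (−1.53 ± 0.13), Nfkb1 (−1.18 ± 0.11), Tnfaip3 (−1.49 ± 0.29), Nfkb2 (−0.87 ± 0.17) and Nfkbie (−0.67 ± 0.15) were lower too. Nfkbia was the member that was higher, at 206, 172, 196 and 155 CPM against 46.4 to 105 CPM (1.48 ± 0.24, edgeR adjusted p = 0.000335). Rela (−0.22 ± 0.12, edgeR adjusted p = 0.139) and Tnip1 (0.17 ± 0.11, edgeR adjusted p = 0.209) did not pass, and Rela passed without CCR1 replicate 4 (−0.32, edgeR adjusted p = 0.0436). No gene of the 10 had overlapping libraries other than these 2.

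Against inflamed CCR1/2+ve monocytes, 5 of the 10 genes were lower and 1 higher in the libraries labelled CCR1, where 23% of genes tested were lower and 20.2% higher, with a median of −0.53 beside 0.0 over all genes. Birc3 (−1.96 ± 0.11), Rel (−1.55 ± 0.12), Nfkb1 (−1.06 ± 0.10) and Relb (−2.32 ± 0.44) were lower with no overlap. Calls for the other 2 were less stable. Tnfaip3 (−0.98 ± 0.33, edgeR adjusted p = 0.029) did not pass without CCR1 replicate 1 or 4 or CCR1/2 replicate 3 or 4, with adjusted p up to 0.223. Nfkbia (1.80 ± 0.57, edgeR adjusted p = 0.0487) did not pass without any 1 of the CCR1 libraries or without CCR1/2 replicate 3, with adjusted p up to 0.132. The comparisons of the libraries labelled CCR1 with the 2 inflamed populations share these 4 libraries. No resting library carries this label, so inflammation and cell type cannot be told apart in them.

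Genes whose levels over the 19 libraries followed each member most closely were found by Pearson correlation of log2 CPM among 7685 genes with a mean of at least 10 CPM. These values describe libraries that fall into 5 groups, and much of each correlation is shared group membership. Birc3 was closest to Plek and Dapp1 (r = 0.99 for both), Rel to Trafd1 and Zbp1 (r = 0.99 for both) and Nfkb1 to Zdhhc9 and Adam17 (r = 0.99 for both). Tnip1 was closest to Gsn and Washc1 (r = 0.99 for both), Nfkbia to Rinl and Cdipt (r = 0.98 for both), Nfkb2 to Mfsd5 and Trim8 (r = 0.97 for both), Relb to Xiap (r = 0.98) and Prkch (r = 0.97), and Tnfaip3 to Vcpip1 (r = 0.97) and Mcur1 (r = 0.96). Nfkbie (Ube2f at r = 0.88, Pcnx at r = 0.84) and Rela (Hlcs and Klhdc3, r = 0.89 for both) had no gene as close. Within the 10 genes, Tnfaip3 followed Nfkb2 (r = 0.93) and Relb (r = 0.92), and Birc3 followed Rel (r = 0.96), whereas Tnfaip3 and Tnip1 ran in opposite directions (r = −0.75).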

How the data were processed

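Monocytes were sorted from bone marrow of REP mice and sequenced as paired-end libraries. The authors checked reads with fastp, aligned them to GRCm38 with STAR (2.7.10a per the labels), kept reads that aligned 1 time with 35 or more matched bases, and assigned them to genes of Ensembl release 91. The deposited values are raw read counts for 50854 genes, and the strand of counting is not given in the sources used here. Of 20 columns of counts, 1 was left out because no sample record matches it. Groups and replicate numbers were taken from sample titles.

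The 10 members and all gene lists were chosen with earlier results of these data known. A mean of 1 read over the 19 libraries was required of a gene (18652 tested). The libraries of the groups compared were fitted by the robust quasi-likelihood method of edgeR 4.0.16 (R 4.3.3) after TMM scaling, the two-sided p-values were adjusted by Benjamini-Hochberg over these genes, and an adjusted p below 0.05 was a pass. Standard errors came from the fold change and its F value. Levels are CPM with TMM factors over 19 libraries, so ratios of levels differ slightly from fitted folds. Exon lengths are of all exons of a gene merged, from GENCODE M21. For single genes, log2 CPM was permuted over libraries (exact, two-sided). The fits were tested on simulated data. Named were all members, and from each list at most 3 genes per direction with the smallest p among those that passed. Of the lists, Nkiras1, Rnf31 and Plau are not analysed here. Alternatives were DESeq2 1.42.0, its size factors (RLE), other filters, 1 fit of all libraries, a replicate block, leaving out each library and a fold cutoff of 1 on the log2 scale.

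No replicates of a group agreed within sampling noise (lowest chi-square per degree of freedom 11.2). The labels give replicate numbers but no shared animal or day. Over 7685 genes, same-numbered libraries deviated together between resting populations (4 pairs, r from 0.31 to 0.61) and between inflamed CCR1 and inflamed CCR2 libraries (4 pairs, r from 0.13 to 0.25), so the numbers were taken to pair these, and not in the other comparisons. Between inflamed CCR1/2 and inflamed CCR2 libraries, r was −0.31 to 0.50 for same numbers (3 pairs). It was −0.63 to 0.45 for other numbers (9 pairs).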

Additional observations from a re-analysis of the deposited data

How the results depend on the processing

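The counts of members that passed were within 1.5 times of the reported count under DESeq2, RLE size factors, no filter, edgeR's filterByExpr, 1 fit of all libraries, the replicate block and the added filter on 15 libraries, except that DESeq2 gave 1 (Birc3) for the interaction. A fold cutoff of 1 on the log2 scale left 0 members between resting populations, 4 in inflamed CCR2+ve and 5 in inflamed CCR1/2+ve monocytes. Leaving out 1 library gave 6 to 9 members between resting populations, 6 to 7 for inflammation in CCR2+ve, 8 to 10 in CCR1/2+ve, 8 to 9 for CCR1 against CCR2, 4 to 6 for CCR1 against CCR1/2, and 0 for the inflamed populations and the interaction.

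With the replicate number as a block, 9 members passed between resting populations, 7 and 8 for inflammation in CCR2+ve and CCR1/2+ve monocytes, and 0 for the inflamed populations and the interaction. Where numbers paired the libraries, the block changed no member's call. Where they shared only a number, Nfkbia lost its call for inflammation in CCR1/2+ve monocytes (−2.69, edgeR adjusted p = 0.1), and Nfkbia (2.10, 0.118) and Tnfaip3 (−0.71, 0.154) for CCR1 against CCR1/2. The interaction of interferon response genes had 9 with the block and 0 without it (0 also at RLE size factors, 2 with DESeq2).

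Signs turned only for differences that had not passed. For CCR1 against CCR1/2 the log2 difference turned to 0.058 (Nfkb2), 0.055 (Nfkbie) and 0.079 (Rela) with the block and 0.013 (Rela) with no filter. The interaction turned to 0.0065, 0.0082 and 0.050 for Nfkb2 with DESeq2, RLE size factors and 1 fit of all libraries, and to −0.098 for Nfkbie with the block. Rel between inflamed populations turned to −0.043 with the block. Leave-one-out values crossed 0 for inflammation in CCR2+ve monocytes in Birc3 (−0.021 to 0.18) and Nfkbie (−0.031 to 0.27). They did between inflamed populations in Rel (−0.079 to 0.12), Birc3 (−0.11 to 0.013) and Nfkbia (−1.12 to 0.075), and for CCR1 against CCR1/2 in Nfkb2 (−0.37 to 0.21), Rela (−0.16 to 0.076) and Nfkbie (−0.35 to 0.11). For the interaction they did in Tnfaip3 (−0.21 to 0.47), Nfkb2 (−0.31 to 0.26), Nfkbia (−0.49 to 0.72), Relb (−0.41 to 0.15) and Nfkbie (−0.10 to 0.35). The causes were not tested.

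Scaling shifted the median of all genes most for inflammation in CCR1/2+ve monocytes, from −0.25 with TMM to −0.17 with RLE size factors and −0.12 in 1 fit of all libraries. With no filter on low counts, 3 interferon response genes passed between resting populations, where 10 had passed. Depth limited Relb most, at 7 to 22 reads in the libraries labelled CCR1.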
